A study of Mus musculus with 6 samples.

Results

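The nonclassical and the classical monocytes of the mouse lung at postnatal day 21 were compared with each other within the same libraries. The members were the 4736 cells that the authors' deposited annotation names Nonclassical Monocytes (3267 cells) or Classical Monocytes (1469 cells), of 33061 day 21 cells with a class and 55882 such cells over all 6 libraries. The animals were wild type C57BL/6N mice, kept in room air (21% oxygen) throughout or given hyperoxia (95% oxygen) from postnatal day 1 to day 5 and then room air until they were killed at day 21. There were 4 day 21 libraries, each a pool of the lungs of 3 mice: female room air, male room air, female hyperoxia and male hyperoxia. Each sex and treatment therefore had 1 library, and the differences between animals within a pool were not measured. The lungs were perfused, dissociated, sorted for live cells and taken through the 10x Genomics 3-prime single-cell kit, in which each RNA molecule captured is counted as 1 unique molecular identifier (UMI). The 2 libraries of day 1 held 32 and 11 nonclassical cells and were not compared.

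Monocytes are blood phagocytes made in the bone marrow. Classical monocytes, marked in the mouse by high Ly6C and the chemokine receptor CCR2, leave the blood at sites of injury and give rise to macrophages and dendritic cells. Nonclassical monocytes, which have low Ly6C and depend on the nuclear receptor NR4A1, develop from classical ones, crawl along the wall of small vessels and clear debris there, and the lung holds many of them in its capillaries.

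The nonclassical class had 924, 984, 764 and 595 cells in the female room air, male room air, female hyperoxia and male hyperoxia libraries, and the classical class had 582, 314, 294 and 279. All values for single libraries below follow this order of the libraries. UMIs were summed per library and class, which gave 8 sums of 3798987 to 10031206 UMIs, and levels are given as CPM, the UMIs of a gene scaled to a common total of the sum. Levels were compared between classes and libraries for a gene, not between genes. A classical cell held more RNA: its median was 13161 to 14861 UMIs per library against 7691 to 9487 for a nonclassical cell, a ratio of 1.57 to 1.71 in each library. CPM compares composition and removes this difference of total. In a sum, fewer cells with a transcript and less of it per cell cannot be told apart.

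The labels of the libraries were checked on the members. Xist was found in 83.9% of the nonclassical and 88.5% of the classical cells of female room air, but in 50.5% and 48.6% of those of female hyperoxia, and in at most 0.358% in the male libraries. Y-linked transcripts in both female libraries stayed at or below 0.141 CPM against 173 to 272 CPM in the males, so the female hyperoxia library stood apart in its Xist share without male transcripts. One cell barcode was shared between 2 of the libraries. A doublet caller marked more cells in the hyperoxia libraries: 0.433%, 0.915%, 2.09% and 3.03% of nonclassical and 1.55%, 1.27%, 3.40% and 2.87% of classical cells. The doublets were kept in the comparisons. Results were recomputed under other settings, among them without each library and without these doublets. For the named genes of the interactions, the number of settings in which they were called is given.

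The proportion of the 2 classes differed between the libraries. Nonclassical cells made up 61.4% of both classes in female room air (exact binomial 95% interval 58.8% to 63.8%), 75.8% in male room air (73.4% to 78.1%), 72.2% in female hyperoxia (69.4% to 74.9%) and 68.1% in male hyperoxia (64.9% to 71.2%). The share was thus 10.9 percentage points higher after hyperoxia in females and 7.73 points lower in males. The intervals cover counting error only, and hyperoxia was not tested on the share. With 1 library per sex and treatment, the difference between the sexes in its change had no replicate. Against all cells with a class, nonclassical monocytes were 10.9%, 13.9%, 9.14% and 6.52%, and classical monocytes were 6.84%, 4.44%, 3.52% and 3.06%. Both classes were therefore a smaller share of all cells after hyperoxia in both sexes.

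**Figure D1:**
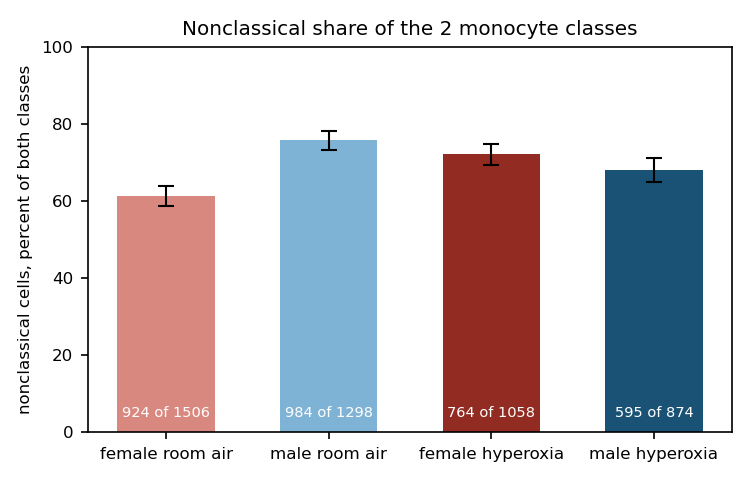
Nonclassical cells as a percent of the nonclassical and classical cells of each day 21 library (y axis, from 0), with exact binomial 95% intervals as error bars and the cell numbers in the bars. The female room air library had the lowest share, 61.4%, and the male room air library the highest, 75.8%.

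The defining markers separated the classes in every library. All 12 nonclassical markers were higher in the nonclassical sums and all 10 classical markers were lower, without overlap of the 4 libraries of one class with the 4 of the other. Whether reads of opposite strands were kept apart is not given in the sources used here, and 156 of the 495 listed or named genes overlap a gene on the other strand, among them Cx3cr1, Ace, Pou2f2, Ear2, F13a1, Vcan, Fn1, Pparg, Dusp16, Ccdc192, Tgfbr3, Gas7, Thbs1, Ccl2, Cd9, Bcl2 and Cd274. Over all 11041 genes tested, 28.9% were called higher and 30.4% lower in nonclassical cells (adjusted p under 0.05, quasi-likelihood test of edgeR with the library as a block), so a call alone was common. The median log2 change was 2.33 for the nonclassical markers and -4.19 for the classical markers, against 0.00 for all genes tested. The classes are the authors' clusters of these same counts, so these p-values describe how repeatable a difference was over the 4 libraries and are no independent evidence that the classes differ.

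Cd300e, an activating receptor of myeloid cells (chromosome 11, 115051917 to 115062177, minus strand, GRCm38), stood at 201, 253, 231 and 248 CPM in nonclassical and at 2.64, 1.45, 0.704 and 1.05 CPM in classical monocytes. Its log2 change of 6.90 (SE 0.14, adjusted p = 2.15e-12) was the largest of the nonclassical markers, and the classical values rested on 3 to 23 UMIs per sum. Fcgr4, a receptor for the Fc part of IgG, was at 416, 641, 532 and 508 CPM against 40.8, 56.5, 39.9 and 44.0 CPM. Ace, the angiotensin-converting enzyme, and Treml4, a receptor of the TREM family, were higher by 2.42 (SE 0.05) and 2.60 (SE 0.06) on the log2 scale. Nr4a1 itself differed less: it was at 662, 649, 612 and 612 CPM in nonclassical and 295, 302, 270 and 269 CPM in classical cells, a log2 change of 1.01 (SE 0.04, adjusted p = 5.53e-10). Cx3cr1, the receptor of fractalkine and a common reporter for these cells, had the smallest change of the 12, 0.81 (SE 0.06), with 368 to 447 CPM against 197 to 218 CPM.

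Among the classical markers, F13a1, the A chain of coagulation factor XIII (chromosome 13, 36867178 to 37050244, minus strand), was at 892, 650, 717 and 927 CPM in classical and 8.09, 8.57, 22.4 and 38.8 CPM in nonclassical monocytes, a log2 change of -5.69 (SE 0.22, adjusted p = 3.50e-10). Vcan, the matrix proteoglycan versican, was at 358, 206, 180 and 226 CPM against 7.11, 3.29, 6.92 and 12.7 CPM. Ly6c2, which encodes the Ly6C antigen, was at 870, 1190.2, 916 and 982 CPM against 31.1, 78.4, 38.7 and 53.7 CPM, and its reads may be shared with the near-identical Ly6c1. Ccr2 was at 796, 867, 527 and 671 CPM against 102, 96.5, 55.5 and 86.9 CPM. Hp, which encodes haptoglobin, and Mgst1, a glutathione transferase, changed least among the 10, by -1.68 and -1.66 on the log2 scale, and still did not overlap between the classes.

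**Figure D2:**
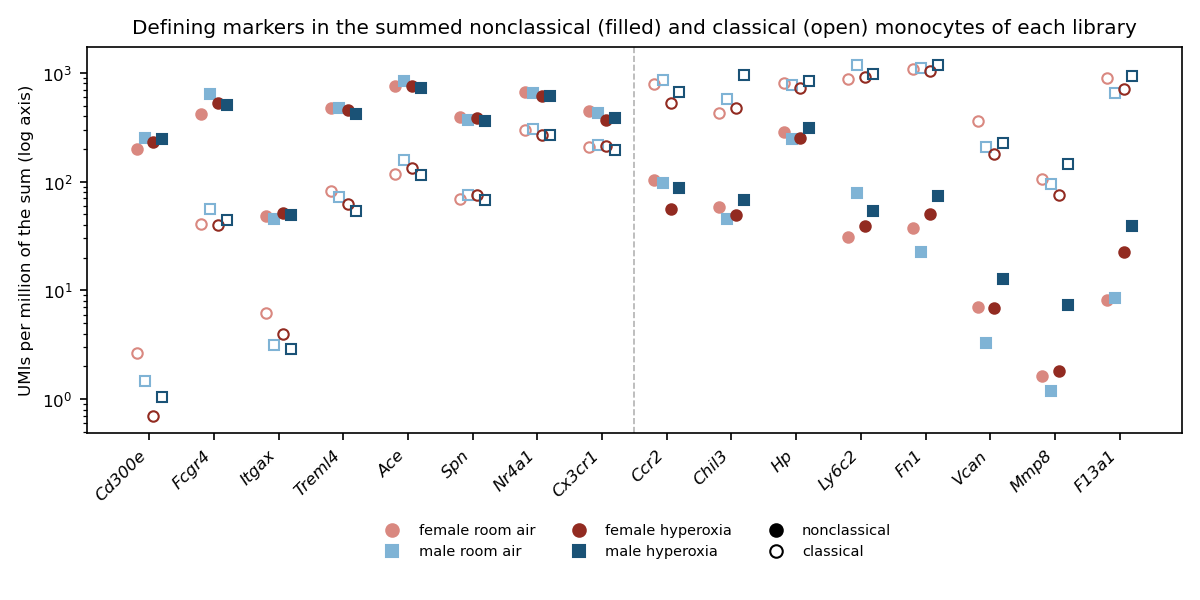
CPM on a log axis of 8 nonclassical (left) and 8 classical markers (right) in the summed nonclassical (filled) and classical (open) monocytes, with circles for female and squares for male libraries and pale colours for room air. For each gene the filled and open symbols form separate groups; Cd300e lies between 201 and 253 CPM in nonclassical and between 0.704 and 2.64 CPM in classical cells.

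Per cell, the separation was sharper for some markers than for others. At least 1 UMI of Treml4 was found in 90.1% to 95.7% of nonclassical and 33.7% to 43.3% of classical cells, against 1.28% to 4.96% of B cells, which should lack it and had median depths of 7311 to 10854.5 UMIs. After every cell with at least 2000 UMIs was thinned to 2000, the ranges were 55.0% to 60.6%, 11.6% to 14.1% and 0.595% to 0.909%. Cells with fewer UMIs were left out of the thinned shares, such as 6 of the 764 nonclassical cells of female hyperoxia. Ly6c2 was found in 88.1% to 95.5% of classical cells and in 12.7%, 17.6%, 8.90% and 10.6% of nonclassical cells, while the B cells had 11.8%, 6.84%, 10.1% and 7.09%. The nonclassical share was therefore below the B cell share in female hyperoxia and above it in the other 3 libraries.

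Ccr2 in nonclassical cells was above the background: 33.3%, 33.0%, 19.2% and 20.8% of cells had a UMI, against 0% to 4.96% of B cells. After thinning, the shares were 13.9%, 13.7%, 6.07% and 8.91%, lower in both hyperoxia libraries than in both room air libraries. Both a UMI of Ly6c2 and one of Treml4 were found in 37.8%, 38.2%, 27.9% and 29.0% of classical cells and in 11.7%, 16.8%, 7.59% and 8.40% of nonclassical cells. These shares were not tested between treatments.

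Over all genes, 6553 of 11041 (59.4%) differed between the classes, 3193 higher and 3360 lower in nonclassical cells, and 742 (6.72%) were at least 2-fold higher and 774 (7.01%) at least 2-fold lower (13.7% together). The CPM of the 4 nonclassical sums lay above all 4 classical ones for 3588 genes (32.5%) and below for 2079 (18.8%). The scaling used in the test (TMM) lowers the unscaled log2 ratio of the classes by 0.10, 0.14, 0.17 and 0.19 in the 4 libraries, so small differences in CPM can vanish in the test. In a further setting, the UMIs of each cell were divided at random into 2 sets. The cells were put into 2 clusters with the first set, and the clusters were tested with the second set. Here 96.2% of cells fell in the cluster of their class, 5467 of 9970 genes were called, and 5161 of these were among the 6553. Of those 5161 genes, 5058 had the same direction. The cells were still those of the authors' classes, which were made from all UMIs. The 6553 genes were called on sums that include the second set. This overlap is therefore no independent evidence for the classes.

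The 15 largest rises in nonclassical cells, among called genes with at least 100 UMIs in the nonclassical sum of every library, included genes of lipid uptake and of vessels. Fabp4, a fatty acid binding protein, was at 210, 272, 231 and 356 CPM against 7.68, 12.3, 5.87 and 5.53 CPM, a log2 change of 4.85 (SE 0.13). Cd36, a scavenger receptor and fatty acid transporter, was at 618 to 733 CPM against 27.4 to 36.0 CPM (log2 change 4.30, SE 0.06). Pparg, a nuclear receptor that both genes are known to respond to (chromosome 6, 115360951 to 115490399), was at 477, 480, 512 and 558 CPM against 34.3, 33.9, 33.1 and 26.8 CPM, a log2 change of 3.81 (SE 0.07, adjusted p = 1.09e-12). All 3 were also measured in other lung cells, with the highest other class (venous endothelium, general capillary cells and alveolar macrophages) at 2.83, 3.53 and 1.27 times the nonclassical level.

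Vegfc, a growth factor of lymphatic vessels, was at 78.9 to 102 CPM against 1.60 to 2.70 CPM (log2 change 5.16, SE 0.11), and venous endothelial cells held 11.9 times as much. Vwf, the adhesive protein of platelets and endothelium, was at 34.9, 36.2, 46.3 and 46.8 CPM against 2.52, 1.87, 2.35 and 3.16 CPM, a log2 change of 3.86 that was 3.78 without doublets and 2.95 in the test on the second set of UMIs. Venous endothelial cells held 90.5 times as much Vwf. The other genes of this group were Tmem26 (4.97), Ccdc192 (4.83), Jade2 (4.71), Setbp1 (4.56), the TGF-beta co-receptor gene Tgfbr3 (4.44), the beta-adrenoceptor gene Adrb1 (4.43), Airn (4.10), the phosphatase gene Dusp16 (3.92) and the ion transporter gene Slc12a2 (3.89), with log2 changes in brackets. Other lung classes exceeded the nonclassical level 10.9 times for Tgfbr3 (myofibroblasts), 9.62 times for Airn (pericytes) and 4.94 times for Adrb1 (general capillary cells). The markers of endothelial cells were also higher in nonclassical cells, with values given further on, and the part of their RNA in these rises was not tested. Airn is an RNA that overlaps Igf2r on the other strand, and the same limit on strands holds for it.

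The 15 largest falls by the same rule, with 100 UMIs in the classical sums, held the markers F13a1, Vcan, Ly6c2, Mmp8 (-5.50), Fn1 (-4.83) and Chil3 (-3.56). Among the others was Ccr1, a receptor of inflammatory chemokines, at 72.4, 67.1, 39.9 and 55.8 CPM in classical and 1.59 to 2.41 CPM in nonclassical cells (log2 change -5.07, SE 0.14). Gas7 (-4.64), Cd177 (-4.60), the matricellular gene Thbs1 (-3.73), the protease inhibitor gene Slpi (-3.72), Wfdc17 (-3.68), the calcium-binding S100a8 (-3.41) and Mfsd7a (-3.39) followed. The highest other class was the neutrophils for Ccr1, Mmp8, Cd177, Slpi, Wfdc17 and S100a8, at 1.96 to 95.8 times the classical level.

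**Figure D3:**
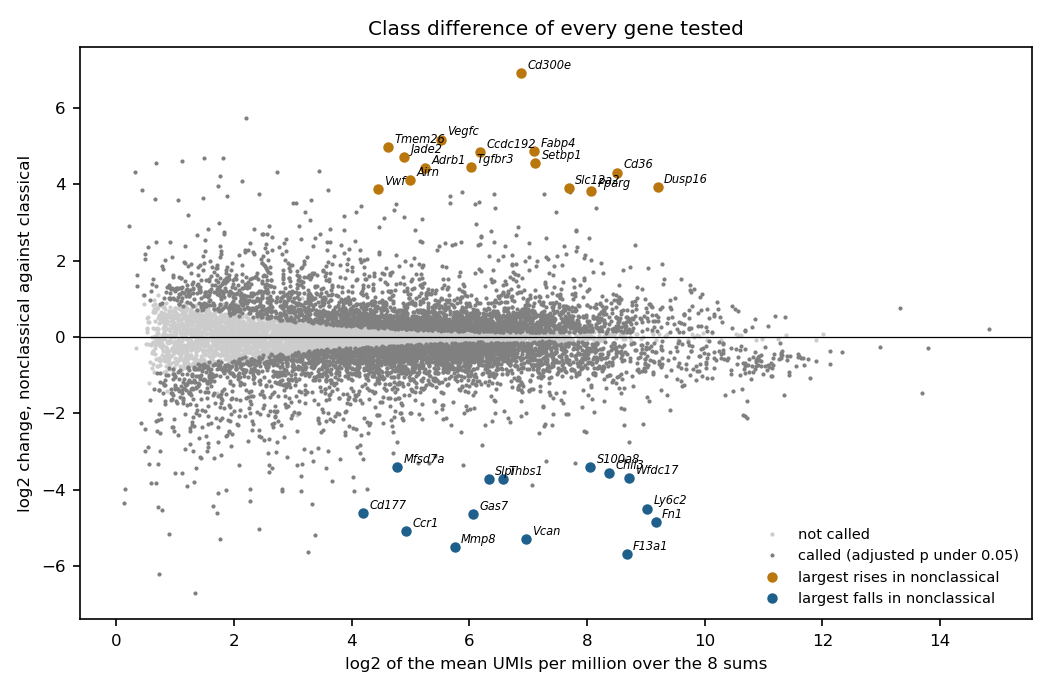
Log2 change of nonclassical against classical monocytes (y axis) over the log2 mean CPM of the 8 sums (x axis) for the 11041 genes tested, with called genes in dark grey and the largest rises and falls in colour with their names. Cd300e lies highest of the named genes at 6.90 and F13a1 lowest at -5.69.

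For the gene lists that follow, the shares over all genes tested were 28.9% higher and 30.4% lower. At 2-fold or more they were 6.72% and 7.01%. Transcription factors changed in both directions: of 43 tested, 16 were higher, 19 were lower and the median log2 change was -0.06. Beside Pparg, the WNT effector gene Tcf7l2 was at 379, 414, 413 and 395 CPM against 58.1, 63.6, 38.7 and 45 CPM (log2 change 2.80, SE 0.09), and Bhlhe40 (2.51), the oxysterol receptor gene Nr1h3 (2.34), Runx2 (2.08), the Notch target Hes1 (1.58) and Pou2f2 (1.53) were higher. Klf4, a monocyte factor, was higher by 0.78 (SE 0.05), whereas Klf2 did not pass the test (log2 change 0.11, adjusted p = 0.0879). Of the C/EBP family, Cebpb was higher by 0.29, and Cebpa (-1.24), Cebpd (-1.37) and the granulocytic Cebpe (-1.93) were lower.

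Nr4a2, a relative of Nr4a1, had the opposite direction: it was at 62.1, 24.1, 38.5 and 52.1 CPM in classical and 13.4, 8.27, 13.7 and 13.5 CPM in nonclassical cells (log2 change -1.98, SE 0.12), and the estimate for Nr4a3 was -0.96 (adjusted p = 0.0391) with overlapping libraries. Nr4a3 was called in only 7 of 15 other settings, with -0.04 in the hyperoxia libraries alone. All 3 are immediate early genes. The early genes Egr1 (-1.80), Atf3 (-1.51), Fosb (-1.98), Fos (-1.36) and Junb (-1.27) were lower, as Nr4a2 was, while Nr4a1 was higher. In the list of genes known to respond to tissue dissociation, 6 of 20 were higher and 13 lower, and its summed level was 6517 to 8258 CPM in nonclassical and 8927 to 10403 CPM in classical cells. The part of cell preparation in these differences was not tested.

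The receptors that guide monocytes differed by gene. Of 23 chemoattractant receptors tested, 10 were higher and 9 lower. S1pr5, a sphingosine phosphate receptor for exit from the marrow, was at 179, 168, 174 and 164 CPM against 46.6, 45.5, 39.0 and 34.5 CPM (log2 change 1.89, SE 0.06), and Cxcr4 (1.15), Fpr1 (1.15) and Cx3cr1 were also higher. Ccr1 and Ccr2 were lower. Of 9 chemokines tested none was higher and 6 were lower: Ccl2, the ligand of CCR2, was at 40.8, 21.0, 16.9 and 41.3 CPM in classical and 1.79 to 3.58 CPM in nonclassical cells (log2 change -3.66, SE 0.15), and Ccl9 (-2.02), Cxcl2 (-0.88), Ccl6 (-0.85) and Ccl3 (-0.72) were also lower.

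Adhesion genes were more often higher, 18 of 31, with 7 lower. The tetraspanin gene Cd9 was at 378 to 398 CPM against 20.6 to 30.7 CPM (log2 change 3.79, SE 0.08). The integrin gene Itgax (3.32), the tetraspanin gene Cd81 (3.11), Pecam1 (2.62), Spn, which encodes the CD43 antigen (2.25), Adgre4 (1.92) and Itgal (1.25) were higher, and Jaml (-1.39) and the integrin gene Itga5 (-1.26) were lower. Cd81 and Pecam1 had 27.3 and 13.3 times higher levels in another lung class, and both were higher in the hyperoxia than in the room air nonclassical sums: Pecam1 was at 99.8, 83.5, 190 and 142 CPM.

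Of the Fc receptors, Fcgr4 and the neonatal receptor gene Fcgrt (1.38, SE 0.06) were higher, and the high-affinity receptor gene Fcgr1 (-1.25), Fcgr2b (-0.36) and Fcgr3 (-0.35) were lower. The common chain gene Fcer1g was at 2654 to 3071 CPM in nonclassical and 2363 to 2548 CPM in classical cells and did not pass the test after scaling (log2 change 0.05, adjusted p = 0.291). Of 30 pattern and scavenger receptors tested, 12 were higher and 12 lower: Cd36, Treml4 and Trem3 (0.98) against Clec5a (-3.63), Cd14 (-2.51) and Treml2 (-2.24). Cd14, the coreceptor for bacterial lipopolysaccharide, was at 261, 204, 232 and 271 CPM in classical and 54.7, 33.8, 49.6 and 51.5 CPM in nonclassical cells.

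Granule and antimicrobial genes were mostly lower. Of 26 tested, 21 were lower, 17 of them at least 2-fold, and 2 were higher, with a median log2 change of -1.49. Over all genes tested, 30.4% were lower, 7.01% at least 2-fold lower and 28.9% higher. Prtn3, proteinase 3 of the primary granules, was at 16.0, 14.8, 18.1 and 26.3 CPM in classical cells and on 0 to 5 UMIs per nonclassical sum (log2 change -5.62, SE 0.32). Lcn2 (-4.02), Slpi, S100a8 and the lysozyme gene Lyz2 (-1.46) were lower as well. The exceptions were the ribonuclease gene Ear2 (2.01) and the peptidoglycan receptor gene Pglyrp1, at 645 to 693 CPM against 162 to 188 CPM (1.83, SE 0.05). Neutrophil markers were higher in classical cells: 6 of 8 were tested and all 6 were called lower in nonclassical cells, with the summed level of the 8 at 217 to 281 CPM in nonclassical and 709 to 1208 CPM in classical cells and Ly6g at 0 in 3 nonclassical sums. Single cells weighed in these sums, since 1 classical cell of the male hyperoxia library held 655 of the 1389 UMIs of S100a9, and the part of neutrophil RNA in these differences was not tested.

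Genes of coagulation and matrix turnover were lower for 12 of 19 tested and higher for 4. F13a1, Vcan, Fn1 and Thbs1 led the falls, while the protease gene Adamdec1 (4.32), the inhibitor gene Serpinb6a (2.49) and thrombomodulin, Thbd (0.74, SE 0.07), were higher. Thbd was at 94.2, 88.8, 118 and 120 CPM in nonclassical and 41.6 to 61.6 CPM in classical cells.

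Survival genes were higher for 13 of 24 and lower for 7. Bcl2, which blocks cell death, was at 204, 271, 145 and 186 CPM against 24.6, 25.4, 27.0 and 21.6 CPM (log2 change 2.88, SE 0.11). Its relatives Bcl2a1b (3.74), Bcl2a1a (3.53) and Bcl2a1d (3.37) were also higher, but these 3 are near-identical copies and reads may be split between them. Csf1r, the receptor of the factor monocytes live on, was at 869 to 918 CPM against 445 to 529 CPM (0.74, SE 0.05). The death genes Bbc3 (0.94) and Pmaip1 (0.77) were higher too, and Bcl2l11 was lower (-0.58).

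Antigen presentation did not move as 1 group, with 8 of 25 higher and 13 lower. Both ligands of the inhibitory receptor PD-1 were higher: Cd274 at 99.7, 115, 82.6 and 82.8 CPM against 5.79 to 9.35 CPM (log2 change 3.52, SE 0.09) and Pdcd1lg2 at 19.3 to 22.7 CPM against 0.458 to 1.45 CPM (4.33, SE 0.24). Cd83 (2.76) and the class I genes H2-K1 (0.82), B2m (0.54) and H2-D1 (0.48) were higher. The class II loading genes H2-DMa (-1.93) and H2-DMb1 (-1.58), the class II regulator gene Ciita (-1.72) and the thiol reductase gene Ifi30 (-2.29) were lower, whereas the invariant chain gene Cd74 was higher by 0.48 (SE 0.06) and H2-Ab1 did not pass the test (0.13, adjusted p = 0.538). Ciita was tested in only 9 of the 17 other settings and called in all 9. The 8 dendritic cell markers summed to 26.6 to 65.9 CPM in classical and 7.28 to 20.0 CPM in nonclassical cells. Of the 4 dendritic markers tested, 2 were lower and 1 was higher, and the part of dendritic cell RNA was not tested.

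Of 28 cytokine genes and receptors tested, 12 were higher and 9 lower. Tnf was at 21.2, 21.1, 20.5 and 35.6 CPM against 4.70, 4.36, 6.57 and 2.90 CPM (log2 change 2.18, SE 0.21). In nonclassical male hyperoxia, 90 of its 179 UMIs came from 1 cell. The growth factor genes Pdgfb (2.29) and Hgf (1.34) and the TGF-beta receptor genes Tgfbr1 (1.54) and Tgfbr2 (1.08) were higher. The decoy receptor gene Il1r2 (-3.25), Osm (-2.89) and Il6 (-2.57) were lower, with Il6 at no more than 5.63 CPM in any sum. Il1b was at 92.8 to 144 CPM against 72.4 to 143 CPM and did not pass the test (0.01, adjusted p = 0.916).

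Lipid genes were higher for 15 of 33 (45.5%) and lower for 9 (27.3%), against 28.9% and 30.4% of all genes tested. Beside Fabp4 and Cd36, the transfer protein gene Pltp (1.91), the cholesterol exporter gene Abca1 (1.72) and the lipoxygenase gene Alox5 (1.64) were higher. Npc2 (-1.92), which moves cholesterol out of lysosomes, the scavenger receptor gene Msr1 (-1.67) and the lipoxygenase activator gene Alox5ap (-1.08) were lower, and the cyclooxygenase genes Ptgs2 (-2.55) and Ptgs1 (-2.35) were lower at no more than 8.68 CPM. In glycolysis, Eno3, the muscle form of enolase, was higher (3.26, SE 0.10) and the general form Eno1 was lower (-0.53, SE 0.04). Of the 20 glycolysis genes tested, 5 were higher (25%) and 9 lower (45%).

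Of 19 cell cycle genes tested, 5 were higher (26.3%) and 8 lower (42.1%), against 28.9% and 30.4% of all genes tested. The mitotic genes Ube2c (-4.03), Birc5 (-4.02), Cenpf (-3.57) and Ccnb2 (-3.44) were lower, with Ube2c at 11.2, 12.7, 16.4 and 12.6 CPM in classical and 0.698 to 0.995 CPM in nonclassical cells. The replication genes Mcm7 (1.45, SE 0.15) and Mcm6 (1.02) were higher, at 11.9 to 15.5 CPM against 3.74 to 7.37 CPM. Among glucocorticoid-responsive genes, 7 of 14 were higher and 4 lower: Zbtb16 was at 334, 266, 511 and 510 CPM in nonclassical and 75.5, 55.3, 115 and 103 CPM in classical cells (2.06, SE 0.05), and Ddit4 (1.99) and Sgk1 (1.24) were higher. Of the genes of oxidative stress and hypoxia, 7 of 20 were higher and 8 lower, with Hmox1 (0.62) higher and Bnip3 (-1.31), Gpx4 (-1.25) and Prdx5 (-1.08) lower.

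**Figure D4:**
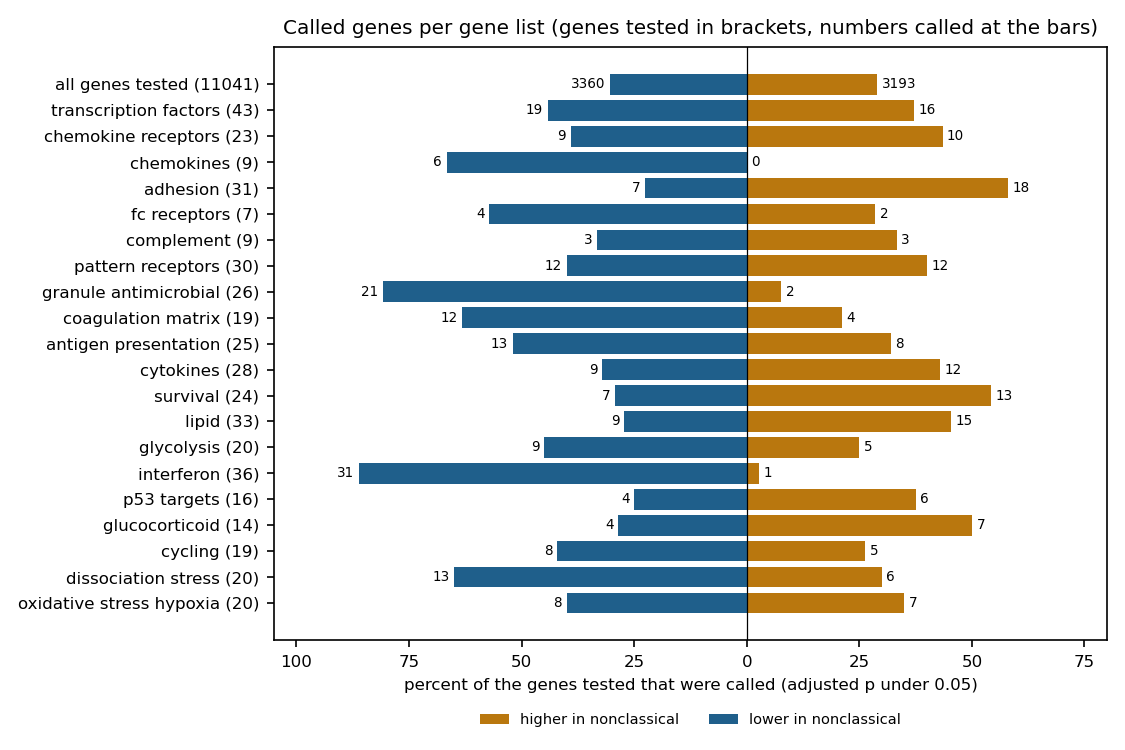
Percent of the genes tested in each functional list (marker lists not drawn) that were called higher (right) or lower (left) in nonclassical monocytes at an adjusted p under 0.05, with the numbers called at the bars and the number tested in brackets. Among the lists drawn, interferon reaches farthest to the left with 31 of 36 lower, and adhesion farthest to the right with 18 of 31 higher.

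Genes induced by interferon, the signal of the antiviral response, were lower in nonclassical monocytes as a group. Of 36 tested, 31 were lower, 20 of them at least 2-fold, and only Cd274 was higher. Over all genes tested, 30.4% were lower, 7.01% at least 2-fold lower and 28.9% higher. The median log2 change was -1.24. The summed level of the list was 1507, 2301, 1216 and 1137 CPM in nonclassical and 2743, 3321, 2739 and 2374 CPM in classical cells, a ratio of classical to nonclassical of 1.82, 1.44, 2.25 and 2.09. Between 27 and 33 of the genes were lower under the 17 other settings, and 31 were lower in the test on the second set of UMIs.

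Isg15, a ubiquitin-like protein that is among the most strongly induced of these genes (chromosome 4, 156199424 to 156200818, minus strand), was at 144, 142, 124 and 105 CPM in classical and 17.1, 33.8, 14 and 16.1 CPM in nonclassical cells, a log2 change of -2.82 (SE 0.14, adjusted p = 2.58e-09). Ifit1, which binds viral RNA, was at 18.2, 23.9, 28.6 and 29.0 CPM against 4.48, 8.27, 3.25 and 2.39 CPM (-2.48, SE 0.25). Usp18 (-2.24), Ifit3 (-2.18), Ifi203 (-2.02), Oasl1 (-1.95), Ifi47 (-1.92) and Oasl2 (-1.66) were lower, and so were the factor genes Irf7 (-1.17), Stat2 (-0.80) and Irf9 (-0.60). Irf1 did not pass the test (0.06, adjusted p = 0.488). Reads of Ifit3 may be shared with its copy Ifit3b.

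Many interferon-induced genes have in their promoters an element that factors such as STAT2 and IRF9 bind. The letters GAAA, any 2 bases and GAAA were searched on both strands of the 300 bases around each RefSeq start (250 before, 50 after, GRCm38.p6). They were found in 20 of 37 promoters of the interferon list (54.1%, 30 of 36 genes matched to a promoter), in 12 of 21 promoters of its members that were at least 2-fold lower (57.1%), and in 3.44% of all 32851 promoters. The stretches below, printed 5′ to 3′ in the direction of the gene with each match in capitals (TTTC, 2 bases and TTTC on the other strand), are shown for 4 members described here.
Isg15: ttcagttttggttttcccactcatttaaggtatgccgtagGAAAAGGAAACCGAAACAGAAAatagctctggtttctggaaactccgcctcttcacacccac
Ifit1: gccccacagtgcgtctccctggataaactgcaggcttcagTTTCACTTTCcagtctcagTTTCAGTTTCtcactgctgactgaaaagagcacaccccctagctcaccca
Rsad2: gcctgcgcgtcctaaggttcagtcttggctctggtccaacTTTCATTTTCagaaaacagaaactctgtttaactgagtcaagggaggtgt
Ifi203: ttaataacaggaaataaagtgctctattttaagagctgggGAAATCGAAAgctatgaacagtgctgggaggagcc
They lie at chr4:156200835-156200936 (minus strand), chr19:34640745-34640853 (plus), chr12:26456523-26456612 (minus) and chr1:173942493-173942567 (minus). Isg15 has 3 overlapping matches, the first 78 bases before the start, Ifit1 has 2, at 104 and 85 bases, and Rsad2 and Ifi203 have 1 each, at 120 and 35 bases. A match describes the sequence and not the use of the site. The larger sets of genes were not compared, since fewer than 80% of their members had a promoter in the table (8618 of the 11041 genes tested).

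Whether the class difference was another size after hyperoxia was tested with a class by treatment term, with class by sex in the same model. The design has 4 libraries and 1 residual degree of freedom, and its p-values lean on the spread shared over genes. Of 11041 genes, 124 (1.12%) were called, 78 (0.706%) with a higher and 46 (0.417%) with a lower ratio of nonclassical to classical after hyperoxia, and 1171 (10.6%) had an unadjusted p under 0.05. DESeq2 called 3, without doublets there were 103 calls (22 higher, 81 lower, 52 of them among the 124), and without the sex term there were 20. Fits that left out 1 library also dropped the sex term and left 1 library of a treatment. Their calls therefore cannot be put down to the library left out. Leaving out male hyperoxia gave 71 calls and leaving out male room air 213.

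The interferon genes shared 1 direction in this comparison. All 36 had a negative estimate, with a median of -0.49, where 5980 of the 11041 genes tested were negative with a median of -0.02. Called were 9 of the 36: Cxcl10, Rsad2 (-1.73, SE 0.27), Ifit1 (-1.60, SE 0.32), Ifit3 (-1.55, SE 0.27), Igtp (-0.97), Gbp2 (-0.86), Ifi47 (-0.77), Oasl2 (-0.68) and Ifi203 (-0.46). Rsad2, the antiviral protein viperin, was at 11.5, 20.1, 8.19 and 5.57 CPM in nonclassical and 22.5, 22.2, 35.7 and 31.1 CPM in classical cells, so the classes were closest in male room air and farthest apart in the 2 hyperoxia libraries.

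Among the 4 nonclassical sums, male room air had the highest summed level of the list, 2301 CPM. Among the classical sums, male room air was also the highest, at 3321 CPM. There Gbp2, a GTPase of host defence, was at 123 CPM in nonclassical and 108 CPM in classical cells, against 15.1 to 21.0 and 28.1 to 31.2 CPM in the other 3 libraries. Without male room air, 33 of 36 estimates were negative with a median of -0.41. The median was -0.50 without female hyperoxia, -0.56 without male hyperoxia and -0.60 without female room air. These fits without 1 library also dropped the sex term and left 1 library of a treatment. Without doublets 35 were negative, the median was -0.60 and 18 were called. DESeq2 called 1 of the 36, and 2 were called without the sex term. Of the 9 genes, Cxcl10 was called in all 10 other settings that tested it and Rsad2 in 10 of 11, while Igtp was called in 4, Ifi47 in 5, Ifit1 in 6, Gbp2 and Ifi203 in 7 and Ifit3 and Oasl2 in 8 of 11.

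Cxcl10, a chemokine for activated T cells and the largest fall (-6.61, SE 0.56, adjusted p = 7.25e-05), was held by few cells. Its estimate ran from -11.8 to -4.73 over the other settings, so its size is not fixed. It was at 5.36, 2.49, 1.27 and 0 CPM in nonclassical and 1.26, 3.33, 21.6 and 32.4 CPM in classical cells. The 92 and 123 UMIs of the classical hyperoxia sums came from 12 and 6 cells, with 43 and 41 UMIs in 1 cell each, and 39 of the 49 UMIs of nonclassical female room air came from 1 cell. Serpina3g (-4.78), with 37 of 52 UMIs of classical male hyperoxia in 1 cell, and Stfa2l1 (-4.13), with 30 of 40, had their UMIs in few cells in the same way and were called in 5 of 8 and 3 of 7 other settings, and both belong to families of near-identical genes. S100a9 (-1.15, SE 0.11) was called in all 11 other settings, with the single cell named above in its classical male hyperoxia sum. All 6 neutrophil markers tested had a negative estimate, with a median of -0.83, and S100a9 and Retnlg were called, Retnlg in 6 of 11 other settings. The part of neutrophil RNA was not tested.

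**Figure D5:**
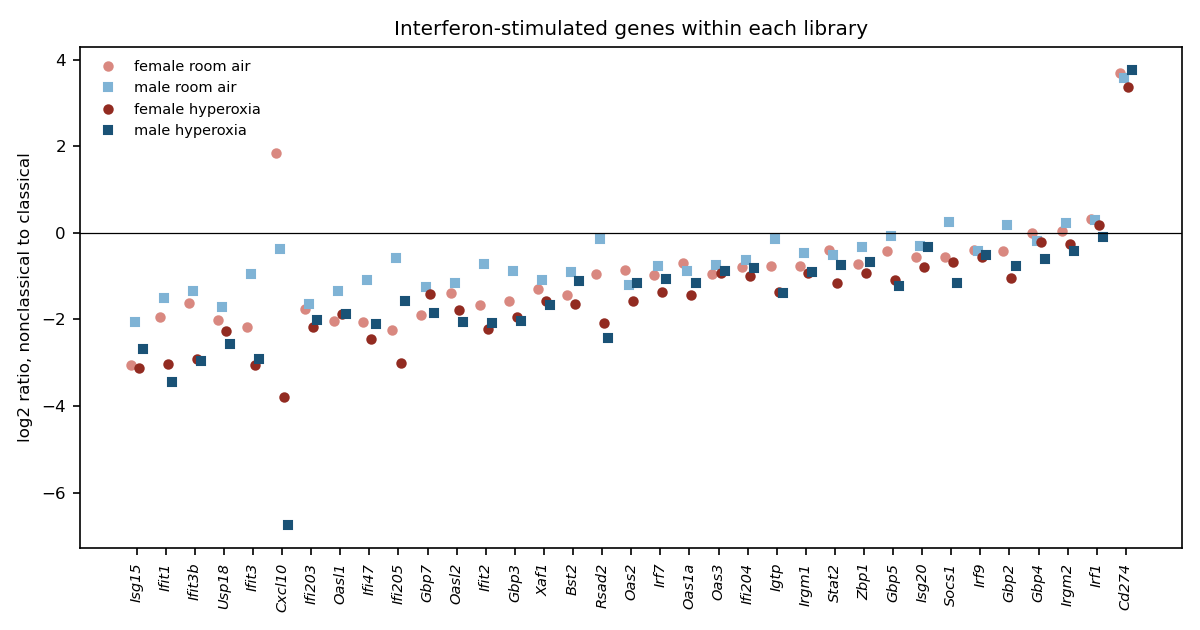
Log2 ratio of nonclassical to classical CPM (y axis, 2 UMIs added at the mean sum size, without TMM scaling) of 35 interferon-stimulated genes in the 4 libraries, ordered by the fitted change. Between 30 and 34 of the 35 genes lie below 0 in a library, and male room air has the highest ratio for 27 of them.

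The rises after hyperoxia differed from the falls in their levels in other lung classes. Of the 78 genes, 68 (87.2%) had at least 4 times their monocyte level in another lung class, 58 of them in endothelial cells, against 11 of the 46 falls (23.9%). For the class difference, the share was 25.1% of the genes called higher (802, 279 of them in endothelial cells). It was 23.2% of those called lower (780, 97 in endothelial cells), near the share of the falls. The share over all genes tested was not counted. The largest rises were Dach1 (3.24), Zfp366 (2.84), Lyve1 (2.74), Pde3a (2.68) and Mertk (2.64), with Dach1 at 4.15, 5.78, 25 and 19.1 CPM in nonclassical and 6.07, 5.82, 4.46 and 1.32 CPM in classical cells. The 177 and 96 UMIs of Dach1 in nonclassical female and male hyperoxia came from 37 of 764 and 29 of 595 cells. Of these UMIs, 58 and 22 were in 1 cell each. Zfp366 was held there by 21 and 27 cells and Lyve1 by 25 and 29. Pde3a was held by 38 and 35 cells and Mertk by 24 and 12. Dach1 was called in 10 of 11 other settings, Zfp366 in 9 of 11, Lyve1 in 7 of 10, Pde3a in 6 of 11 and Mertk in 5 of 11. Without doublets the estimates were 2.16 for Dach1, 1.95 for Zfp366, 0.55 for Pde3a and 1.90 for Mertk, of which only that of Dach1 was called, and Lyve1 was not tested. All 8 endothelial markers had a positive estimate and 6 were called, against 0 with DESeq2, 2 without male hyperoxia (median 0.87) and 2 without the sex term. Their summed level was 154, 186, 394 and 585 CPM in nonclassical and 94.8, 98.5, 121 and 103 CPM in classical cells, and none of the 8 was at 0 in a sum. The 8 fibroblast markers summed to 10.6, 13.5, 58.6 and 63.3 CPM in nonclassical and 14.7, 17.5, 25.3 and 22.6 CPM in classical cells. Of the 4 fibroblast markers tested, Col3a1 and Mgp were called higher after hyperoxia and 1 had a negative estimate. The tight junction gene Cldn5 was at 11, 19.7, 44.8 and 73.0 CPM in nonclassical cells and held by 62, 102, 90 and 63 cells there, and capillary cells had 144 times its monocyte level.

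Doublet calls were also more frequent in the nonclassical cells of both hyperoxia libraries, as given above. Without doublets, 5 of the 8 endothelial markers kept a positive estimate, none was called and the median was 0.05 against 1.45. The same markers were 8 of 8 higher in the class difference itself, with a median of 1.32; without doublets 6 were called, and in the test on the second set of UMIs none was higher and 7 were lower. F13a1 rose in the hyperoxia comparison by 1.66 (SE 0.12), from 8.09 and 8.57 to 22.4 and 38.8 CPM in nonclassical cells, and its estimate without doublets was -0.19 (adjusted p = 0.854). Fn1 (0.97) and Vcan (1.28), 2 further classical markers, were called in the same direction, while Mgst1 (-0.40) was called in the other. Of the 10 classical markers, 4 had a negative estimate and the median was 0.14. Without doublets 7 were negative, none was called higher and 4 were called lower. The part of other cells' RNA in these values was not tested. The doublets were called from the same counts, so leaving them out cannot test it. Plac8, a gene of myeloid cells, was at 2629, 3084, 2014 and 2117 CPM against 4445, 5299, 4203 and 4479 CPM, with an estimate of -0.36 (SE 0.04). Plac8 and F13a1 were called in 10 of 11 other settings, Fn1 and Mgst1 in 8 and Vcan in 7.

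For the class by sex term, 11 genes (0.0996%) were called, 2 higher (0.0181%) and 9 lower (0.0815%) in the ratio of nonclassical to classical of females, with 671 (6.08%) at an unadjusted p under 0.05. DESeq2 called 0, and 0 were called with all 4 libraries when the class by hyperoxia term was dropped. Fits without 1 library also dropped that term and left 1 library of a sex, so their calls cannot be put down to the library left out. Chil3, a chitinase-like protein of myeloid cells, was the named rise (0.70, SE 0.09, adjusted p = 0.0125): it was at 57.9, 45.1, 48.9 and 68.0 CPM in nonclassical and 430, 578, 475 and 953 CPM in classical cells. Ifi205 (-1.60), an interferon-induced gene, was at 7.0, 24.8, 3.81 and 6.96 CPM in nonclassical cells and 34.2, 37.4, 32.6 and 21.3 CPM in classical ones. The falls Col4a1 (-1.73), Ptprm (-1.70), Ctla2a (-1.43) and Itga1 (-1.17) had 67.4 to 115 times their monocyte level in another lung class. This class was endothelial for 2 of them and mesenchymal (pericytes or fibroblasts) for 2. Tnfaip6 (-3.32) and Ripor2 (-0.71) had their highest other level in neutrophils. Single cells weighed here too: in nonclassical male room air, 1 cell held 97 of the 223 UMIs of Itga1 and 1 cell 94 of the 344 of Col4a1. Tnfaip6 had only 4, 17, 5 and 24 UMIs in the nonclassical sums and 131, 39, 43 and 18 in the classical sums. In classical male room air 1 cell held 21 of its 39 UMIs, and in nonclassical male hyperoxia 1 cell held 12 of 24. The 8 named genes were called in 3 (Itga1 and Ptprm) to 7 (Col4a1 and Ripor2) of 11 other settings.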

How the data were processed

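The members and gene lists were chosen with earlier results of these data known. The deposited matrices hold raw UMI counts per gene and cell; per the file headers Cell Ranger 7.0.1 made the day 21 matrices, while the submitters' processing notes list Cell Ranger 6.0.0, Seurat 4.1.1 and mm10. Intron counting and the clustering steps are not given in the sources used here. Cell classes came from the authors' deposited annotation. No cell was filtered beyond having a class.

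Counts were summed per library and class (4 libraries, 8 sums) and tested with edgeR 4.0.16 in R 4.3.3: filterByExpr, TMM scaling, quasi-likelihood test, Benjamini-Hochberg adjustment over 11041 genes, threshold 0.05. The class test had the library as a block, since both classes came from the same pooled lungs (3 residual degrees of freedom); the model with class by hyperoxia and class by sex left 1. The libraries are separate pools of 3 mice. With the library as a block, the class p-values measure the spread of the class difference over the 4 libraries. Each sex and treatment had 1 library, so the interaction p-values do not measure a spread between replicate pools. The labels' shared numbers pair nothing else. DESeq2 1.42.0 was an alternative, as were the settings of the closing section. Doublets were called with Scrublet in scanpy 1.11.5. For the test on divided UMIs, 2 k-means clusters were made on 20 principal components of 2000 variable genes. The scripts were tested on simulated data.

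Named for the class difference were the 15 called genes with the largest change in each direction, with at least 100 UMIs in the higher class and 1 direction in all 4 libraries. For the interactions they were the 5 largest in each direction with at least 50 UMIs and the 5 with the smallest adjusted p. Unnamed gene models, ribosomal, mitochondrial and haemoglobin genes were left out, and members of 33 lists (594 genes) with large changes were added. Libraries held 122173482 to 137510028 UMIs each. Intervals cover counting error only. A few genes these rules name are not reported here; they stay in the counts over lists.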

Additional observations from a re-analysis of the deposited data

Results flagged for a closer look

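The class difference was of another size after hyperoxia for 124 genes and in females against males for 11 genes, by the test of the interaction itself (edgeR, 1 residual degree of freedom). For hyperoxia the log2 estimates of the named genes were 3.24 for Dach1, 2.84 for Zfp366, 2.74 for Lyve1, 2.68 for Pde3a, 2.64 for Mertk and 1.66 for F13a1, against -6.61 for Cxcl10, -4.78 for Serpina3g, -4.13 for Stfa2l1, -1.73 for Rsad2, -1.60 for Ifit1, -1.15 for S100a9 and -0.36 for Plac8. For sex they were 0.70 for Chil3, -3.32 for Tnfaip6, -1.73 for Col4a1, -1.70 for Ptprm, -1.60 for Ifi205, -1.43 for Ctla2a, -1.17 for Itga1 and -0.71 for Ripor2. The share of nonclassical cells moved in opposite directions, by +10.9 percentage points after hyperoxia in females and by -7.73 points in males. With 1 library per sex and treatment this difference was not tested.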

How the results depend on the processing

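The count of genes that differed between the classes was within 1.5 times 6553 under all 17 settings: 4963 with DESeq2, 6592 with upper-quartile scaling, 5398 with equal numbers of cells, 5061 in females only and 5925 to 6240 without 1 library. Both classes of a library come from the same pool, and without the replicate block 5941 genes were called against 6553. The hyperoxia interaction (124 calls) gave 3 with DESeq2, 345 without a filter on low counts, 212 with equal numbers of cells, 240 with equal UMI totals, 20 without the sex interaction and 71 to 213 without 1 library; the last dropped the other interaction. The sex interaction (11 calls) gave 0 with DESeq2 and without the hyperoxia interaction, 4 with upper-quartile scaling, 61 without a filter, 18 without doublets, 24 with equal numbers of cells, 38 with equal UMI totals and 0 to 54 without 1 library. Of the hyperoxia calls 62.9% were higher, against 21.4% without doublets, 45.8% without a filter, 33.3% with DESeq2, 50.4% with equal UMI totals, 67.9% with upper-quartile scaling and 38.4% to 78.5% without 1 library. The causes were not tested. Of the genes named here, those whose hyperoxia estimate changed sign without doublets were F13a1 (-0.19), Cldn5 (-0.22) and Itga1 (-0.58). Of the named genes called in the class difference, Cldn5 (-1.58) and Lyve1 (-1.03) changed sign in the test on the second set of UMIs, and Lyve1 (-0.067) in room air only. Of those not called, Cxcl10 (-5.26 to 0.81), H2-Ab1 (-0.32 to 0.48), Il1b (-0.16 to 0.22) and Irf1 (-0.11 to 0.19) ran across 0. The shares of nonclassical cells moved by less than their intervals under every setting. The day 1 comparison was not run, since 32 and 11 nonclassical cells were under the minimum of 50. Genes with few UMIs in 1 class, such as Prtn3, are limited by depth.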
